A study of Mus musculus with 12 samples.

Results

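The Myc network is a set of transcription factors of the basic helix-loop-helix leucine zipper class that bind DNA as pairs. Its 10 genes described here were chosen by name, namely Myc, Mycl, Max, Mxd1, Mxd3, Mxd4, Mxi1, Mnt, Mga and Mlx. All 10 had a row in both deposited count tables, which hold 16386 genes for PSC4 and 15309 for KPC4, and all 10 passed the filter on low counts in both lines. The data come from mouse cell lines in a supernatant transfer. PSC4 cells are pancreatic stellate cells, a stromal type that becomes fibroblast-like when activated, and KPC4 cells are pancreatic tumour cells. In the first step KPC4 cells received vehicle or 10 µM of gemcitabine, a chemotherapy drug built like a nucleoside, and PSC4 spent 24 h in their supernatant (Control-SU and Gem-SU). The donor cells were exposed for 6 h, washed, and left for 14 h in starvation medium. In the second step PSC4 cells spent 6 h in Control-SU or Gem-SU, were washed, and conditioned fresh starvation medium for 18 h, and fresh KPC4 cells were kept for 24 h in this medium (Control-PSC-SU or Gem-PSC-SU). Each of the 4 groups had 3 libraries, called biological replicates in the labels, and each line stands for itself alone. Since drug treatment of the donor and the supernatant always go together, effects of drug left in the medium and of factors from treated cells cannot be told apart.

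Myc and its relative Mycl switch on genes of growth, ribosome production and metabolism when paired with Max, at DNA sites called E-boxes whose core letters are CACGTG. Mxd1, Mxd3, Mxd4, Mxi1 and Mnt compete for Max and recruit Sin3 corepressors, so that these pairs repress genes with E-boxes. Mga, a very large protein, also pairs with Max and belongs to a Polycomb-type repressor complex, while Mlx pairs with the glucose-sensing factors MondoA (Mlxip) and ChREBP (Mlxipl) and with some Mxd proteins. Myc is a major driver of pancreatic cancer cell growth, and its RNA is short-lived and responds within hours to growth signals.

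The network's own promoters were searched for the E-box core. RefSeq windows of 300 bases, from 250 before to 50 after the transcript start (mouse build GRCm38.p6), were matched by symbol for 9 of the 10 genes, in 11 windows, and Mxi1 had 3 of them. Myc was not examined here. CACGTG, which reads the same on both strands, stood in 1 window each of Max, Mxd4, Mnt and Mlx, against 7.2% of all 32851 windows in the table. Shown are these 4 promoters and that of Mxd1, the repressor whose RNA rose in PSC4. Each is written 5′ to 3′ on the gene's own strand, and capitals mark CACGTG.
Max (chr12:76962199-76962498, minus strand): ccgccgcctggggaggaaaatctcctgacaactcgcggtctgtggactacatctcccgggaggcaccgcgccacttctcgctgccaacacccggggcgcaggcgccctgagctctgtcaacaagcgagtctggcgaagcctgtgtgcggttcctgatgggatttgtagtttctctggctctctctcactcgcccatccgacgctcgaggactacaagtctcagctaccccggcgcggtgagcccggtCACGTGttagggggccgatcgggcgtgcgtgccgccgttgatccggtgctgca
Mlx (chr11:101087040-101087339, plus strand): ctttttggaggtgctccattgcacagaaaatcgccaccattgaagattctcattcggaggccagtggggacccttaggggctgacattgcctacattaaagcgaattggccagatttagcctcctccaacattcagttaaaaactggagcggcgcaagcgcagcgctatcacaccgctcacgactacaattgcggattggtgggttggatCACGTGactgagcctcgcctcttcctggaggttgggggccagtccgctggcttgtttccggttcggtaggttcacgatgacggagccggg
Mnt (chr11:74830674-74830973, plus strand): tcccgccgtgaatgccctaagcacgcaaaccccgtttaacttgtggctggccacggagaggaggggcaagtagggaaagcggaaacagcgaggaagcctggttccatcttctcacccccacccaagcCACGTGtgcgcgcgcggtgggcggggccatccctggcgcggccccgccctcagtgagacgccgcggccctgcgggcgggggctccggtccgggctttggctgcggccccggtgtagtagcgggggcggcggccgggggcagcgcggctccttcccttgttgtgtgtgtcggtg
Mxd4 (chr5:34187661-34187960, minus strand): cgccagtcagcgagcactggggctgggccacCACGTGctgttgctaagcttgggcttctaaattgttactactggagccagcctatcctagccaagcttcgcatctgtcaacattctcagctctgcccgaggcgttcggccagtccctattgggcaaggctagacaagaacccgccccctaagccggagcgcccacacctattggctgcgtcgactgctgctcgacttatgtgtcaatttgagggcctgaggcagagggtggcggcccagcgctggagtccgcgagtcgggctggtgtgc
Mxd1 (chr6:86669110-86669409, minus strand): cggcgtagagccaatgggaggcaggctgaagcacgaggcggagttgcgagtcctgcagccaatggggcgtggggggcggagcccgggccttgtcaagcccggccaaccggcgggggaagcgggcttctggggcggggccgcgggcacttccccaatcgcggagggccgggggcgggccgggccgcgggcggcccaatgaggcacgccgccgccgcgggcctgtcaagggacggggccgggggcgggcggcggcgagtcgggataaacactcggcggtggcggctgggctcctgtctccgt
The E-box core began 3 bases before the start in Max, 40 in Mlx, 123 in Mnt and 219 in Mxd4. The windows of Mxd1, Mxd3, Mxi1, Mga and Mycl did not hold these letters. In PSC4, members with the core were found among those that rose (Mlx), that fell (Mnt and Mxd4) and that did not pass (Max). Whether the core has a part in any change was not tested.

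Library totals ran from 29559414 to 38138356 counts in PSC4 and from 26354328 to 34744150 in KPC4. Levels are given as counts relative to the TMM-scaled library total (CPM, the usual depth-normalised unit) and as mean ± SD over the 3 libraries of a group. Summed marker genes matched the labels of cell identity. The 7 epithelial markers in the KPC4 table summed to 5817 to 7248 CPM in KPC4. With Control-PSC-SU, Krt8, Krt19, Krt18 and Cdh1 averaged 2840, 1819, 1393 and 581 CPM. Epcam, Cldn7 and Cldn4 averaged only 8.90, 9.71 and 1.27 CPM there, and Esrp1 had no row. In PSC4 Epcam and Cdh1 had no row and the epithelial sum was 2.75 to 5.02 CPM with Control-SU and 7.12 to 9.92 CPM with Gem-SU. The 8 stellate and fibroblast markers summed to 5738 to 7108 CPM in PSC4 with Control-SU but to 1879 to 2878 CPM with Gem-SU, where 6 of the 8 fell, and to at most 33.1 CPM over the 5 listed in KPC4. The KPC4 libraries Gem-PSC-SU replicate 1 and 2 stood furthest from the other libraries of their group, with median absolute log2 differences of 0.420 and 0.412 from their mean, against 0.163 to 0.345 for the other 10. The part of the marker shift in the results below was not tested, and in bulk RNA fewer cells of a type and less RNA per cell cannot be told apart.

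Stellate cells that received Gem-SU had more Myc RNA, more of the antagonist Mxd1 and less of 3 other antagonists. Myc rose 3.33-fold and Mxd1 3.92-fold, whereas Mnt fell 3.76-fold, Mxd4 2.10-fold and Mxi1 1.95-fold, and Mlx rose 1.58-fold. Max, the shared partner, did not pass the test. In the quasi-likelihood fit of edgeR, Benjamini-Hochberg adjusted over 13347 genes, 6 of the 10 members had an adjusted p under 0.05, where 46.3% of all genes tested did, so that the number of changed members was close to the background. The 3 higher members compare with 24.3% of all genes called higher, and the 3 lower ones with 22.0% called lower. The groups did not overlap for 7 of the 10 members, against 56.2% of all genes.

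**Figure D1:**
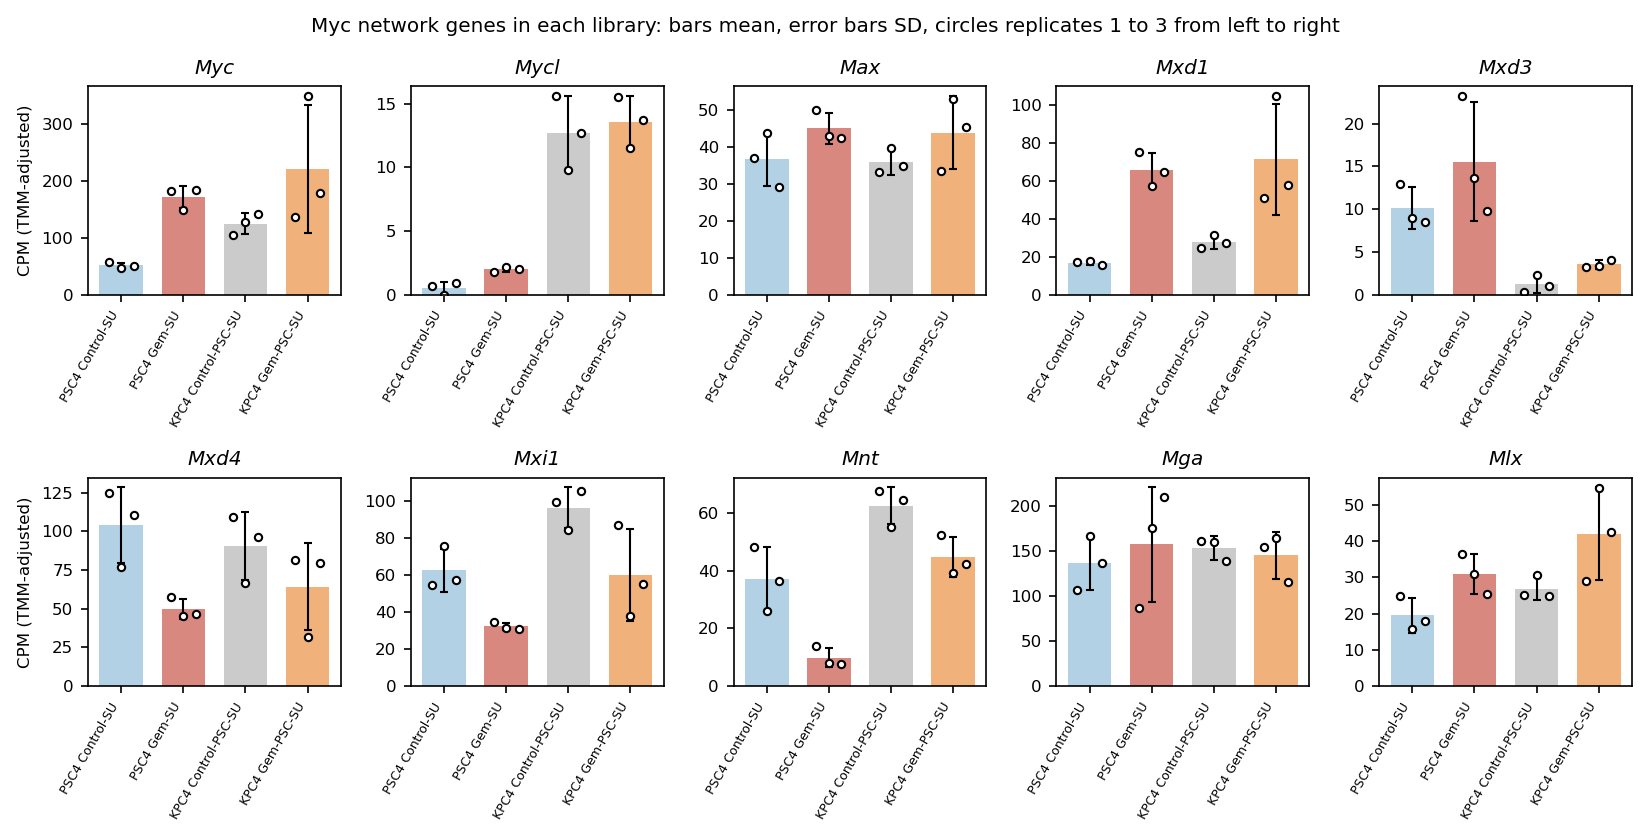
CPM of the 10 Myc network genes in all 12 libraries, with bars at the group mean, error bars of 1 SD (n = 3) and circles for the libraries. In PSC4 the Gem-SU libraries of Myc and Mxd1 lie above all Control-SU libraries and those of Mxd4, Mxi1 and Mnt below them, and in KPC4 the Gem-PSC-SU replicate 2 library stands highest for Myc (350.4 CPM) and Mxd1 (105 CPM).

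Of the activators, Myc (ENSMUSG00000022346) stood at 56.9, 47.2 and 50.2 CPM in the Control-SU libraries of PSC4 and at 183, 149 and 184 CPM with Gem-SU. Every Gem-SU library was far above every control. The means were 51.4 ± 5.00 and 172 ± 19.6 CPM (SD, n = 3 each), and the log2 fold change was 1.73 (standard error 0.15, edgeR quasi-likelihood, adjusted p = 1.03e-04). Mycl (ENSMUSG00000028654), the paralogue named for lung cancer, was near the lower limit of detection in PSC4. Its counts were 22, 0 and 29 in the controls, of which the 0 allows up to 0.0941 CPM (3 counts; counting error only), and 67, 73 and 59 with Gem-SU. The groups did not overlap, but the log2 fold change of 1.90 had a standard error of 0.89 and did not pass (edgeR adjusted p = 0.112). Without the control library at 0 counts, Control-SU replicate 2, it passed with a log2 fold change of 1.30 (edgeR adjusted p = 0.0372).

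Max (ENSMUSG00000059436), the partner that Myc and its antagonists compete for, had 37.0, 43.6 and 29.1 CPM in PSC4 controls and 49.9, 42.9 and 42.3 CPM with Gem-SU. The ranges overlapped. Its log2 fold change was 0.29 (standard error 0.18, edgeR adjusted p = 0.214).

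Among the antagonists, Mxd1 (ENSMUSG00000001156), which typically appears when cells stop dividing and mature, was the one that rose. It had 16.9, 17.6 and 15.4 CPM in PSC4 controls against 75.0, 57.1 and 64.5 CPM with Gem-SU. The libraries of each group lay close together and the groups were far apart, with a log2 fold change of 1.97 (standard error 0.16, edgeR quasi-likelihood, adjusted p = 8.00e-05). Mxd3 (ENSMUSG00000021485), the member known for its expression in dividing cells, had 13.0, 8.97 and 8.52 CPM in controls and 23.3, 13.6 and 9.84 CPM with Gem-SU. One Gem-SU library was high and another lay within the control range, and the log2 fold change of 0.61 did not pass (edgeR adjusted p = 0.157). Without Gem-SU replicate 1 it was 0.21.

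The other antagonists fell in PSC4. Mnt (ENSMUSG00000000282), a broadly expressed and constant partner of Max, fell most, from 48.4, 26.2 and 36.3 CPM to 13.8, 8.11 and 7.70 CPM, by 1.91 on the log2 scale (standard error 0.30, edgeR adjusted p = 0.00133). Its control libraries varied widely, yet the lowest of them was above the highest Gem-SU library. Mxd4 (ENSMUSG00000037235), linked like Mxd1 to cells that leave the cycle, went from 125, 77.2 and 110.2 CPM to 57.2, 45.1 and 46.7 CPM, a log2 fold change of -1.07 (standard error 0.20, edgeR adjusted p = 0.00280). Mxi1 (ENSMUSG00000025025), also called Mxd2, went from 54.3, 75.4 and 57.2 CPM to 34.4, 31.4 and 30.6 CPM, a log2 fold change of -0.96 (standard error 0.17, edgeR adjusted p = 0.00226). All 3 kept separate groups, and their calls held whichever of the 6 PSC4 libraries was left out, as did those of Myc and Mxd1.

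The remaining 2 members act partly apart from Myc. Mlx (ENSMUSG00000017801) had 24.8, 15.6 and 18.0 CPM in PSC4 controls and 36.3, 30.9 and 25.3 CPM with Gem-SU, groups that only just did not overlap. Its log2 fold change, 0.66 (standard error 0.22), passed (edgeR adjusted p = 0.0390). The call was lost in 4 of the 6 fits that left out one library, namely without Control-SU replicate 2 (edgeR adjusted p = 0.115) or 3 (0.143) and without Gem-SU replicate 1 (0.0845) or 2 (0.106). Mlx shares 385 exonic bases with Psmc3ip on the other strand, so its reads are uncertain where counting ignored strand. Mga (ENSMUSG00000033943) ranged from 106 to 167 CPM in controls and from 86.7 to 209 CPM with Gem-SU. These ranges nested within each other, and the log2 fold change was 0.20 (standard error 0.31, edgeR adjusted p = 0.633). By the authors' deposited table, 7 of the 10 members had an adjusted p under 0.05 in PSC4, the 6 above and Mycl (0.0383), where 42.9% of its genes with an adjusted p did.

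**Figure D2:**
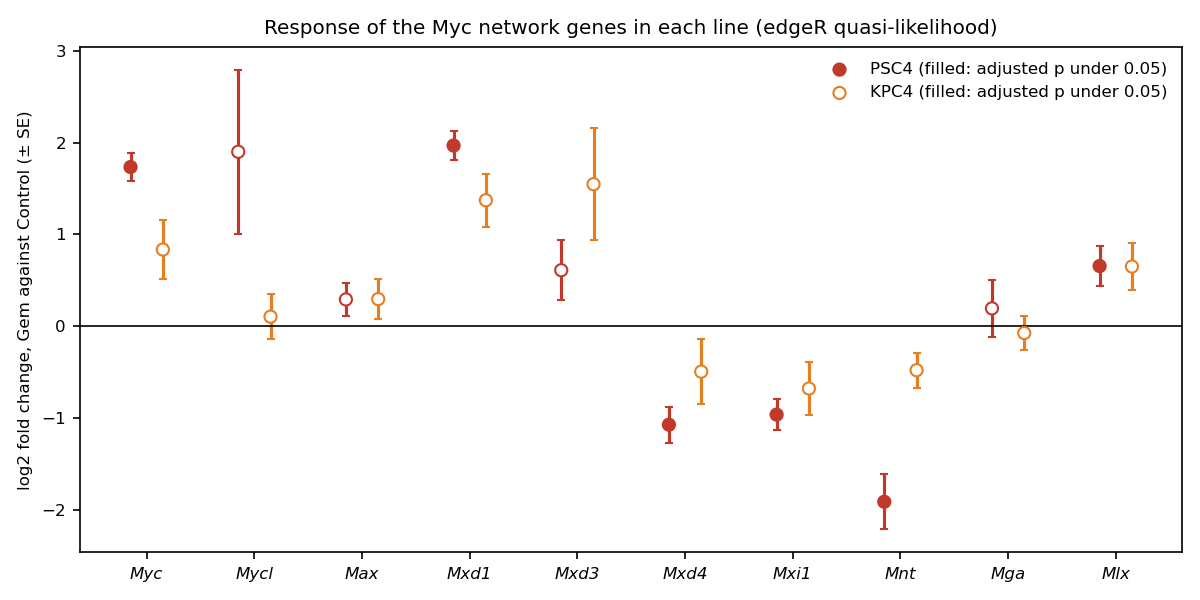
Log2 fold change of each member with Gem-SU against Control-SU in PSC4 and with Gem-PSC-SU against Control-PSC-SU in KPC4, with bars of 1 standard error and filled symbols for an adjusted p under 0.05 (edgeR, no replicate block). The 6 filled points are all from PSC4, and the KPC4 points of Myc, Mxd1, Mxd4, Mxi1, Mnt and Mlx lie on the same side of 0 as those of PSC4.

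In the tumour cells kept in medium of Gem-SU-exposed stellate cells, Mxd1 RNA was 2.59-fold more abundant by edgeR, where it did not pass. With the replicate block it was 2.47-fold more abundant and passed, as it did by DESeq2. The other 9 members did not pass in these fits. By edgeR 0 of the 10 members passed in KPC4, where 0% of all 13236 genes did, while 6 members had an unadjusted p under 0.05, against 17.0% of all genes. DESeq2 called 1 member, Mxd1, against 6.22% of all genes. Same-numbered KPC4 libraries deviated together from their group means, with correlations of 0.351, 0.436 and 0.211. The labels name no shared batch, and 3 libraries per group are too few to establish that the replicate numbers pair them. With the replicate number as a block, 1 of the 10 members passed, again Mxd1, against 8.85% of all genes. DESeq2 with the block, a fit chosen after seeing the data, called 7 of the 10 against 16.5% of all genes. It called Myc (DESeq2 adjusted p = 0.00929), Mxd1 (3.48e-09), Mxd3 (0.00518) and Mlx (0.0183) higher, and Mxi1 (0.00608), Mxd4 (0.0330) and Mnt (0.0469) lower, so the calls of 6 members in KPC4 depend on the tool used with the block.

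Mxd1 in KPC4 had 24.5, 31.4 and 27.0 CPM in the Control-PSC-SU libraries and 51.1, 105 and 57.9 CPM with Gem-PSC-SU. The groups did not overlap, and replicate 2 was the highest in each. The log2 fold change was 1.37 (standard error 0.29, edgeR adjusted p = 0.115), and with the replicate block 1.31 (standard error 0.18, edgeR adjusted p = 0.00641). Without Gem-PSC-SU replicate 2 the blocked value, a fit chosen after seeing the data, was 1.09 (edgeR adjusted p = 1.75e-04). The call without the block also appeared when Gem-PSC-SU replicate 1 was left out (1.56, edgeR adjusted p = 0.0160).

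Myc in KPC4 had 105, 128 and 142 CPM in controls and 137, 350.4 and 179 CPM with Gem-PSC-SU. Replicate 2 stood far above the others, and the lowest Gem-PSC-SU library lay within the control range. The log2 fold change was 0.84 (standard error 0.33, edgeR adjusted p = 0.248), and without Gem-PSC-SU replicate 2 it was 0.35 (edgeR adjusted p = 0.560). Within pairs of the same number Myc was higher by 1.30, 2.75 and 1.26 times, and the blocked fit gave a log2 fold change of 0.73 (edgeR adjusted p = 0.0927).

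The same Gem-PSC-SU replicate 2 library was lowest for Mxd4 and Mxi1. Mxd4 had 109.5, 66.4 and 96.2 CPM in KPC4 controls and 81.4, 31.8 and 79.3 CPM with Gem-PSC-SU, giving a log2 change of -0.49 (edgeR adjusted p = 0.492) that was -0.17 without that library. Mxi1 had 99.3, 84.1 and 105 CPM against 87.0, 37.6 and 55.0 CPM, a log2 fold change of -0.68 (edgeR adjusted p = 0.280). For Mxi1 it was -0.43 without Gem-PSC-SU replicate 2, and -1.05 without replicate 1, where it passed (edgeR adjusted p = 0.0300). Mnt had 67.6, 55.3 and 64.5 CPM against 52.5, 39.3 and 42.2 CPM, groups that did not overlap, with a log2 fold change of -0.48 (edgeR adjusted p = 0.253).

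Mlx in KPC4 had 25.01, 30.6 and 24.9 CPM in controls and 29.0, 54.6 and 42.4 CPM with Gem-PSC-SU, giving a log2 change of 0.65 (edgeR adjusted p = 0.247) that passed without Gem-PSC-SU replicate 1 (0.86, edgeR adjusted p = 0.0413). Mxd3 was scarce, with 12, 79 and 28 counts in KPC4 controls and 90, 107 and 109 counts with Gem-PSC-SU. Those groups did not overlap, and the log2 fold change of 1.55 had a standard error of 0.61 (edgeR adjusted p = 0.251). Max, Mycl and Mga had log2 fold changes of 0.30, 0.11 and -0.07, with overlapping groups. Of the 10 members 3 had groups that did not overlap in KPC4, against 22.9% of all genes. Within all 3 pairs of the same number 5 members were higher with Gem-PSC-SU (Myc, Max, Mxd1, Mxd3 and Mlx) and 3 lower (Mxd4, Mxi1 and Mnt), where 24.5% of all genes were higher and 28.7% lower in all 3. The authors' deposited table listed 1 member with an adjusted p under 0.05 in KPC4, Mxd1 (log2 fold change 1.49, adjusted p = 9.26e-04), where 5.17% of its genes with an adjusted p were.

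The response of the 2 lines differed for Mnt. The change of Mnt was lower by 1.49 on the log2 scale in PSC4 than in KPC4 (standard error 0.37, edgeR interaction over all 12 libraries, adjusted p = 0.0242), making it 1 of 10 members against 9.85% of all 13632 genes tested for this. When the 12 libraries were left out in turn, the interaction of Mnt stayed past the threshold in 6 fits. That call was lost without PSC4 Control-SU replicate 1 or 3, PSC4 Gem-SU replicate 2 or 3 or KPC4 Control-PSC-SU replicate 2 or 3. Over all 12 fits the edgeR adjusted p ran from 0.00662 to 0.0711. With the replicate block 2 members passed, against 21.9% of all genes, namely Mnt (-1.49, edgeR adjusted p = 0.00110) and Myc, whose change was 0.95 higher in PSC4 (standard error 0.27, edgeR adjusted p = 0.0251). Without the block the interaction of Myc was 0.86 (edgeR adjusted p = 0.173), and without KPC4 Gem-PSC-SU replicate 2 it was 1.32 (edgeR adjusted p = 0.00597). For Mxd1 the interaction was 0.55 (standard error 0.33, edgeR adjusted p = 0.317), and without Gem-PSC-SU replicate 2 it was 0.92 (edgeR adjusted p = 0.0270). Both lines received different supernatants, so cell type and step of the transfer cannot be told apart.

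Under the control media the lines differed in 5 of the 10 members, against 42.9% of all genes (edgeR, all 12 libraries, adjusted p under 0.05). Mycl was 24.0-fold higher in KPC4 than in PSC4 (edgeR adjusted p = 7.87e-05), Myc 2.43-fold higher (edgeR adjusted p = 0.00162), Mnt 1.69-fold higher (edgeR adjusted p = 0.0301) and Mxd1 1.66-fold higher (edgeR adjusted p = 0.0222). Mxd3 was 8.33-fold higher in PSC4 (edgeR adjusted p = 3.74e-04). The calls of Mycl, Myc and Mxd3 held in all 12 fits that left out one library, those of Mxd1 in 9 and of Mnt in 7. On the log2 scale the difference of Mxd3 went from 3.06 to 3.997 without KPC4 Control-PSC-SU replicate 2, and that of Mycl from -4.58 to -5.33 without PSC4 Control-SU replicate 3. For Max the difference was 0.02 on the log2 scale (standard error 0.20), with the opposite sign under other scaling or with no filter on low counts.

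Per kilobase of exon, Myc was the most abundant member in every group. It averaged 18.9 ± 1.84 CPM per kilobase in PSC4 controls and 46.0 ± 6.80 in KPC4 controls (SD, n = 3 each), using exon lengths of GENCODE M21. In PSC4 controls Mxd4 (12.3 ± 2.87), Max (10.2 ± 2.02), Mlx (9.74 ± 2.37), Mxi1 (9.13 ± 1.68), Mga (8.90 ± 1.98) and Mnt (7.99 ± 2.40) followed, each with a range that overlapped its neighbour's. Mxd3 (4.29 ± 1.04), Mxd1 (2.35 ± 0.156) and Mycl (0.130 ± 0.119) came last, with ranges that did not overlap each other. In KPC4 controls Mxi1, Mnt and Mlx stood between 13.4 and 14.1 CPM per kilobase and did not differ beyond their spread, and neither did Mxd4, Mga and Max at 9.97 to 10.7. There Mxd1 (3.91 ± 0.495) and Mycl (3.15 ± 0.720) were neighbours within their spread, and Mxd3 (0.511 ± 0.433) was last. With the longest transcript as the length, Mxd4 ranked above Myc in PSC4 controls. In KPC4 controls that length moved Mxd4 from rank 5 to 2, Max from 7 to 4 and Mnt from 3 to 6.

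**Figure D3:**
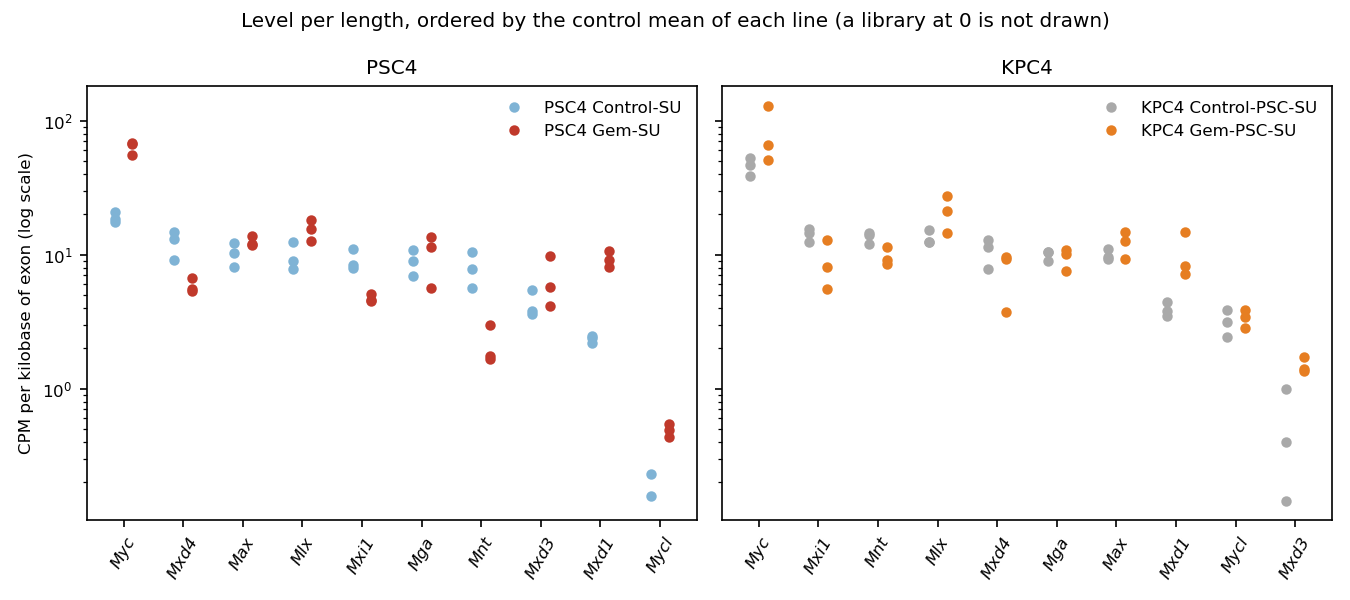
CPM per kilobase of exon on a log axis, 1 point per library, with members ordered by their control mean in each line. Myc is on top in both lines, and Mxd1 moves in PSC4 from 2.35 to 9.26 CPM per kilobase, within the range of Mga with Gem-SU and below those of Max and Mlx.

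The make-up of the Max-binding repressors was read from the same levels per kilobase. Over Mxd1, Mxd3, Mxd4, Mxi1 and Mnt together, the summed level per kilobase was 41.0, 32.1 and 35.0 in PSC4 controls and 35.2, 25.5 and 24.9 with Gem-SU, ranges that overlapped. Mxd1 made up 5.83%, 7.76% and 6.24% of this sum in controls and 30.1%, 31.7% and 36.6% with Gem-SU. Mnt went from 25.5%, 17.6% and 22.4% to 8.45%, 6.87% and 6.68%. The ratio of Myc to the summed repressors was 0.511, 0.541 and 0.528 in controls and 1.91, 2.15 and 2.71 with Gem-SU. In KPC4 this ratio was 0.850, 1.25 and 1.17 in controls and 1.20, 3.80 and 1.81 with Gem-PSC-SU, overlapping ranges with replicate 2 highest. The share of Mxd1 there was 7.58%, 11.8% and 8.49% against 17.1%, 43.6% and 22.5%. These ratios describe RNA per length, restate the members' values above and were given no test. The shares and ratios rest on the same exon lengths and were not computed with the longest transcript.

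**Figure D4:**
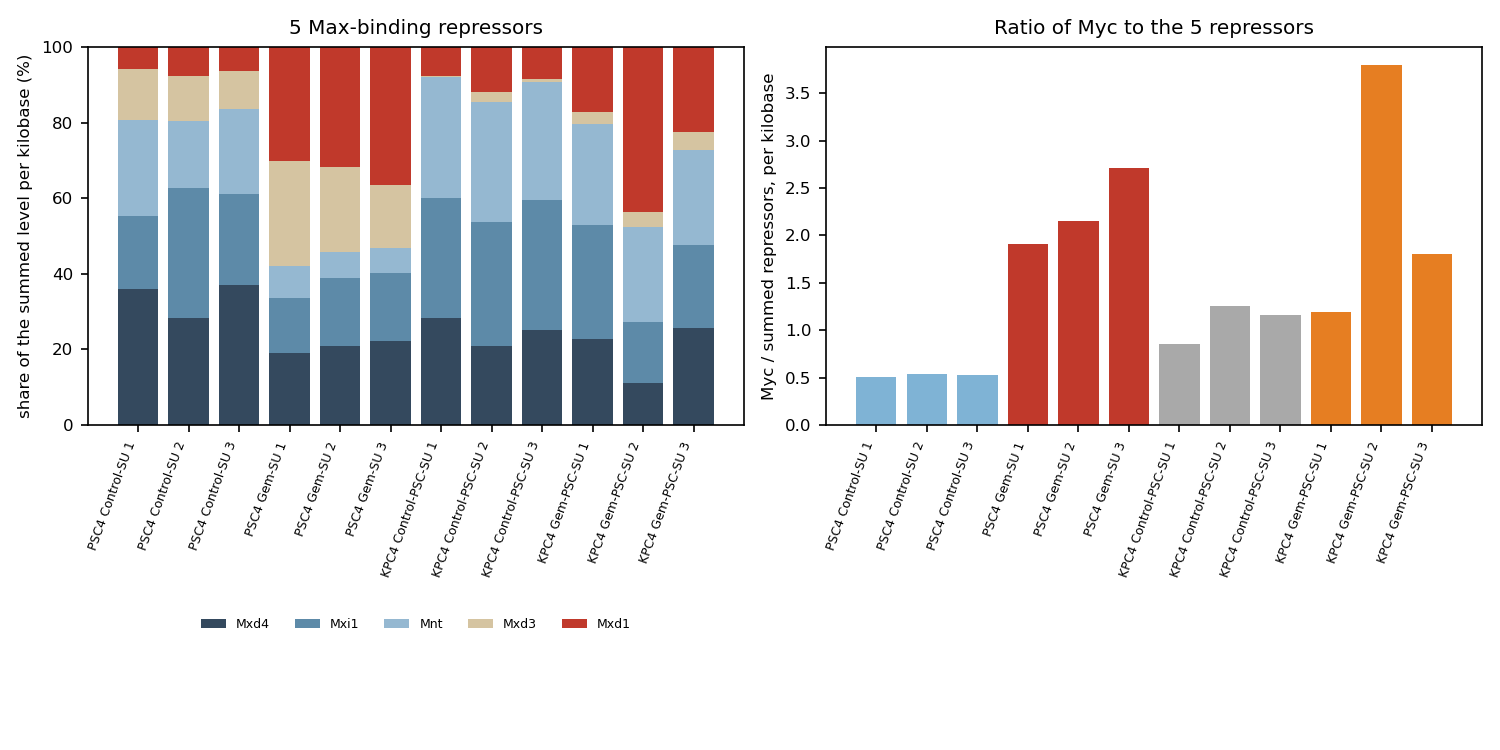
Left, share of each of 5 Max-binding repressors in their summed level per kilobase, in %, by library. Right, ratio of Myc to that sum, which is at most 0.541 in PSC4 controls and at least 1.91 with Gem-SU.

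Genes known as Myc targets were read from the same fits, by lists chosen by function with earlier results of these data known. The counts below therefore describe these lists and are not an unbiased test of them. Of 30 genes that Myc is known to activate, 24 rose and 0 fell in PSC4, where 24.3% and 22.0% of all genes did, with a median log2 fold change of 0.91 against -0.00 over all genes tested. Odc1, the first enzyme of polyamine synthesis, rose from 110.1 ± 10.8 to 557 ± 34.1 CPM (SD, n = 3 each; log2 fold change 2.33, edgeR adjusted p = 4.22e-05). Nop56, a core protein of the particles that modify ribosomal RNA, rose by 2.14 and Rrp12, a ribosome export factor, by 2.61 on the log2 scale. In KPC4 0 of the 30 passed, 4 had an unadjusted p under 0.05 (17.0% of all genes) and DESeq2 called 1, Odc1 (6.22% of all genes). The median there was -0.09 against -0.02 over all genes. With the replicate block 3 passed (8.85% of all genes), Odc1 higher (1.38, edgeR adjusted p = 0.00804) and Ldha and Cad lower. Ldha, lactate dehydrogenase, had a log2 fold change of -0.51 and Polr1b, a subunit of RNA polymerase I, of -0.58 in KPC4 without the block. The difference between the lines was not tested for this list.

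Of 12 genes that Myc is known to repress, 3 rose and 6 fell in PSC4, where 24.3% and 22.0% of all genes did, with a median of -0.52. Those that rose were Cdkn1a, the cell cycle inhibitor p21 and a p53 target (log2 fold change 4.64, edgeR adjusted p = 1.93e-05), the stress gene Gadd45b (3.00, edgeR adjusted p = 1.43e-04) and Ndrg1 (0.83, edgeR adjusted p = 0.00439). Ndrg2, a differentiation gene, fell by 1.95 (edgeR adjusted p = 1.09e-04). Pdgfrb, also among the 6 that fell, is at the same time a stellate marker. In KPC4 0 of the 11 tested passed, 4 had an unadjusted p under 0.05 (17.0% of all genes), and the median was 0.00. DESeq2 called 3 (6.22% of all genes), the same Gadd45b (2.04 in edgeR), Ndrg1 (1.29) and Cdkn1a (1.46). With the replicate block 3 passed (8.85% of all genes), Gadd45b, Ndrg2 and Gas1.

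**Figure D5:**
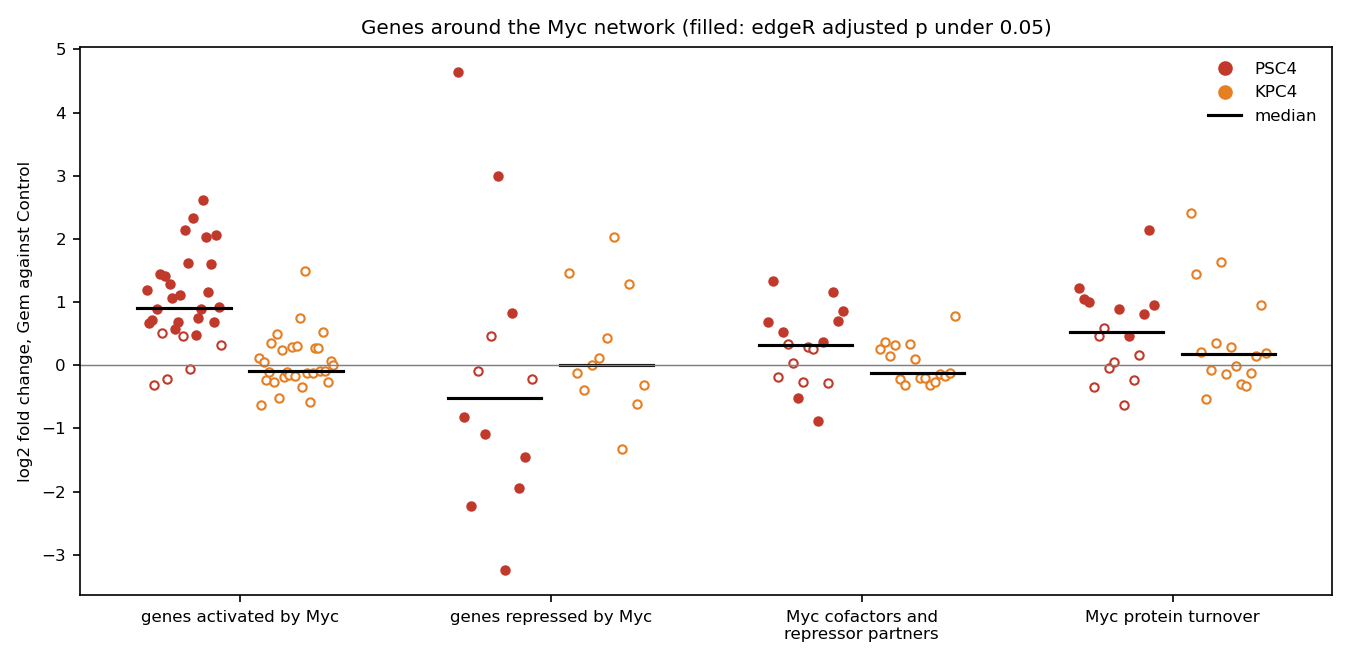
Log2 fold change of the tested genes of 4 lists in PSC4 and KPC4, 1 point per gene, filled for an edgeR adjusted p under 0.05, with lines at the medians. The activated genes sit mostly above 0 in PSC4 (median 0.91) and around 0 in KPC4 (median -0.09).

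Of the partners of Mlx, Mlxip (MondoA) rose in PSC4 from 55.4 to 70.6 CPM in the 3 controls to 110.5 to 159 CPM with Gem-SU (log2 fold change 1.10, edgeR adjusted p = 0.00142), and in KPC4 it had a log2 fold change of -0.08. Mlxipl (ChREBP) was tested in KPC4 alone, at 2.51 and 2.85 CPM. Mycn, the third Myc paralogue, stood at 0.104 and 0.149 CPM in PSC4 and was not tested there, and at 5.03 and 6.61 CPM in KPC4. The MondoA-Mlx target Txnip, an inhibitor of glucose uptake, rose in PSC4 from 265 ± 51.3 to 1379 ± 360 CPM (log2 fold change 2.37, edgeR adjusted p = 2.81e-04). In KPC4 Txnip had a log2 fold change of 3.33 (edgeR adjusted p = 0.112, and 0.135 with the replicate block). Arrdc4, the other such target, was near the lower limit of detection in PSC4, at 0.220 CPM with Control-SU and 0.695 CPM with Gem-SU. The groups overlapped there, and its log2 fold change was 1.64 (standard error 1.00, edgeR adjusted p = 0.210). In KPC4 Arrdc4 had 1.49 (edgeR adjusted p = 0.186), and DESeq2 called both targets in KPC4.

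Of 16 cofactors and repressor partners, 7 rose and 2 fell in PSC4, where 24.3% and 22.0% of all genes did, with a median of 0.32. Together these 9 of 16 are near the 46.3% of all genes called. Without Gem-SU replicate 2 the number called was 5. Ep400, a chromatin remodeller that works with Myc, rose by 1.33 on the log2 scale (edgeR adjusted p = 0.00363) and Zbtb17, the factor Miz1 through which Myc represses genes, by 0.85 (edgeR adjusted p = 0.00418). The 2 Sin3 corepressor genes moved in opposite directions. Sin3a fell from 104 ± 8.14 to 56.5 ± 4.46 CPM (SD, n = 3 each, log2 fold change -0.88, edgeR adjusted p = 0.00119). Sin3b rose from 87.5 ± 5.73 to 114 ± 2.18 CPM (log2 fold change 0.37, edgeR adjusted p = 0.0370). In KPC4 0 of 16 passed, 1 had an unadjusted p under 0.05 (17.0% of all genes), and DESeq2 and the replicate block called 0. There Zbtb17 had a log2 fold change of 0.78, Sin3a of -0.30 and Kat2a, a histone acetyltransferase, of -0.31.

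Of 16 genes that control the stability of Myc protein, 8 rose and 0 fell in PSC4, where 24.3% and 22.0% of all genes did. The median was 0.53, and 8 of 16 is close to the 46.3% of all genes called in either direction. The 8 that rose included Usp36, a deubiquitinase that stabilises Myc (2.14, edgeR adjusted p = 9.59e-05), and Fbxw7, the ubiquitin ligase subunit that marks Myc for decay (1.00, edgeR adjusted p = 0.00109), genes of opposite effect. Aurka, a mitotic kinase, rose by 1.22 (edgeR adjusted p = 3.34e-04). In KPC4 0 of 16 passed, 5 had an unadjusted p under 0.05 (17.0% of all genes), and DESeq2 called 3 (6.22% of all genes). With the replicate block 4 passed (8.85% of all genes). In that fit Aurka (5.06-fold, edgeR adjusted p = 5.29e-04) and Plk1 (3.29-fold, edgeR adjusted p = 0.00157) were higher. Cip2a (2.83-fold, edgeR adjusted p = 0.00133) was also higher, and Gsk3b was lower. Aurka, Cip2a and Plk1 are also genes of dividing cells.

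The genes whose levels ran most like those of a member were ranked by Pearson's r of log2 CPM centred on each line, over 12 libraries and 10757 genes. For Myc these were Txlna (r = 0.987), Tollip (0.983) and Sco1 (0.981), and for Mxd1 they were Ezr (0.990), Tollip (0.982) and Slc25a25 (0.980). For Mxi1 they were Rnft1 (0.982), Ascc1 (0.978) and Igip (0.969), and for Mlx Yju2 (0.978), Alyref (0.975) and Snrnp40 (0.973). The libraries share treatment and scaling, so these values describe likeness in this experiment only.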

How the data were processed

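Total RNA of 12 cultures was sequenced, and the authors deposited raw counts per gene and library for each line, as whole numbers. Per the submitters' processing notes, FastQC, Trim Galore 0.6.10, cutadapt 5.2, Salmon, R 4.5.1, DESeq2 and the build GRCm39 were named without roles, so the counts may be rounded estimates, and the annotation release is not given in the sources used here. The smallest row total was 0 in PSC4 and 11 in KPC4. The authors also deposited, per line, tables of their own comparison, with the log2 fold change of each gene and its p-value before and after adjustment, quoted only as theirs. Of the per-sample columns, 0 were left unused.

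Symbols came from GENCODE M21, which matched 99.7% of identifiers in each table. After filterByExpr removed low-count genes, TMM factors were computed and groups compared within each line by the robust quasi-likelihood test of edgeR 4.0.16 in R 4.3.3 with Benjamini-Hochberg adjustment at 0.05. Standard errors are the log2 fold change divided by the root of F. The comparison between lines used a joint fit. Alternatives were DESeq2 1.42.0, other scaling, filters, robust estimation off, the replicate block, one fit for both lines and leaving out each library. Lengths are the union of exons in GENCODE M21 (build GRCm38), which need not equal those used for counting. Promoters are from RefSeq.

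Members and lists were chosen with earlier results of these data known. All members were named, with the 3 genes of smallest p per list and line, lists of 3 or fewer genes in full, and the 3 genes most like Myc and any member called in both lines under any planned fit, among genes with a mean of at least 50 counts per table. The further genes named in a list were chosen after their values were seen. The labels call the samples biological replicates without naming separate thaws or passages, so p-values measure the spread between these libraries. At these depths counting error is small for all members but Mycl in PSC4 and Mxd3 in KPC4. Mxd3, Mxd4 and Mxi1 overlap other genes on the opposite strand by 105, 514 and 194 exonic bases. Marker lists for leukocytes and endothelial cells were also read. Their sums were at most 5.64 and 5.65 CPM in any library.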

Additional observations from a re-analysis of the deposited data

Results flagged for a closer look

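Mnt met the criterion of a difference between lines, since the interaction over all 12 libraries separated them. It was 1 of 10 members called for this, close to the 9.85% of all genes tested. Its change in PSC4 minus that in KPC4 was -1.49 on the log2 scale (edgeR adjusted p = 0.0242), with a log2 fold change of -1.91 in PSC4 and -0.48 in KPC4. In each line all 3 Gem libraries were below all 3 controls, and 6 of the 12 fits that left out one library kept the interaction past the threshold. The stellate and fibroblast markers also fell in PSC4 (6 of 8 called, summed level 1879 to 2878 CPM with Gem-SU), and their part in this difference was not tested. Groups of 3 libraries are too small for a test of single outlying libraries.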

How the results depend on the processing

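In PSC4 the number of members called was 5 to 7 under every alternative tried, with Mlx the one lost and Mxd3 (replicate block) or Mycl the ones gained. Of the same-numbered PSC4 libraries, replicate 1 deviated together (correlation 0.428), but replicates 2 and 3 had -0.0548 and 0.102. Differently numbered PSC4 libraries had correlations from -0.418 to 0.253, and a pairing is not established there either. The block called 7 members in PSC4, Mxd3 being the one added (0.55, edgeR adjusted p = 0.0417), against 54.4% of all genes. In KPC4 the count of 0 members became 1 with the replicate block, 1 with DESeq2, 1 when both lines shared a fit, and 0 to 3 when one library was left out (3 without Gem-PSC-SU replicate 1, against 8.30% of all genes). With DESeq2 plus the block, chosen after seeing the data, it was 7, against 16.5% of all genes. With the block but without Gem-PSC-SU replicate 2, also chosen then, it was 2 (Mxd1 and Mxd3), against 9.36%. In KPC4 the replicate block called 4 turnover genes, 3 activated and 3 repressed genes (8.85% of all genes). DESeq2 called 3, 1 and 3 (6.22% of all genes), and the fit over all 12 libraries 3, 1 and 3. For that fit, and for most fits that left out a library, the share of all genes is not given. Their counts, also those of the members and the MondoA-Mlx targets, are therefore not set against a background. DESeq2 plus the block called 5, 5 and 5, and the block without Gem-PSC-SU replicate 2 called 4, 2 and 5. Leaving out one library gave 0 to 4, 0 to 2 and 0 to 4. The cofactors had 1 call in KPC4 under DESeq2 plus the block and 0 to 1 with one library left out, and in PSC4 5 to 9. The MondoA-Mlx targets had 2 calls under DESeq2, 1 under the fit over all libraries, 1 under DESeq2 plus the block and 0 to 1 with one library left out. The block raised the members with a different response from 1 to 2, and leaving out one library gave 0 to 3 (3 without KPC4 Gem-PSC-SU replicate 2, against 14.5% of all genes). Members different in controls numbered 3 (without PSC4 Control-SU replicate 3) to 6 with one library left out. Signs turned for values near 0. Max in controls was -0.0027 with DESeq2 size factors, -0.031 with no low-count filter and -0.0026 by DESeq2, and -0.18 to 0.11 with one library left out. The interaction of Mlx was 0.0048 with the block. With one library left out, Mga ran from -0.064 to 0.49 in PSC4 and -0.18 to 0.065 in KPC4, Mycl in KPC4 from -0.036 to 0.28, and the interactions of Max from -0.22 to 0.11, Mxi1 from -0.60 to 0.025, Mga from -0.057 to 0.51 and Mlx from -0.26 to 0.17. The cause of these shifts was not tested.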
